A study of Mus musculus with 2 samples.

Results

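The 36 genes described here encode ribosome biogenesis factors, the proteins that transcribe, modify, cut and fold ribosomal RNA and load ribosomal proteins onto it. They were taken from a fixed list of symbols matched to the symbol column of the authors' deposited table of genes, and all 36 were found among the 17219 genes of that table. The choice used no measured value of these libraries, but it was made with earlier results of these data known. The study set intestinal organoids from mice lacking FABP4 in the gut epithelium, a carrier of fatty acids that is abundant in fat cells and macrophages, against organoids from mice that keep it. F4KO organoids came from mice with floxed Fabp4 alleles and a villin-Cre transgene, whose promoter is active in intestinal epithelium. WT organoids came from mice with the floxed alleles and no Cre, so both genotypes share the floxed alleles. The genotype label calls F4KO a knockdown, unlike its title and the design text, which call it a knockout. Neither the age nor the sex of the mice is stated. Crypts were grown in Matrigel in IntestiCult medium, and mRNA-seq libraries were made on day 6, 1 for each genotype.

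The authors' deposited tables hold 2 comparisons, F4KO against WT organoids and F4KO against WT libraries that the headers call Epi. The labels describe no Epi library, so what Epi stands for, how those cells were obtained and how many animals they came from are not known here. Organoids had 1 library for each genotype, and for Epi the columns hold 1 set of reads against another with no replicate values. There is thus no replicate check in either comparison, and no test of genotype was made. Every false discovery rate (FDR) below is the authors' own, from a Poisson test on reads, and compares libraries, not genotypes. A gene is called higher or lower in F4KO when its deposited FDR is 0.001 or less. The direction, F4KO over WT, rests on the order of the names in the headers alone. Whole reads of each library could be worked back from the p-values for all 36 members in Epi and for 30 in organoids. The F4KO read total was 0.813 times the WT total in Epi and 0.992 times in organoids, while the totals themselves are unknown. Read ratios are corrected for these totals, and their exact 95% intervals cover counting error only. In bulk RNA, fewer cells of a type and less RNA per cell cannot be told apart.

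The making of a ribosome begins in the nucleolus. RNA polymerase I transcribes a long precursor RNA there, and small nucleolar RNAs guide its modification: those of the box C/D class direct ribose methylation and those of the box H/ACA class direct pseudouridylation. Large assemblies then fold and cut the precursor into the RNAs of the small and the large subunit, which mature further in the nucleoplasm and the cytoplasm. Dividing cells need many ribosomes, and in the intestinal epithelium these factors are known to be high in the crypts, where stem cells and their dividing daughters lie, and lower in differentiated villus cells. MYC is a well known activator of these genes and binds the E-box CACGTG as a dimer with MAX.

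Promoters were taken from RefSeq, build GRCm38.p6, as 300 bases each, 250 before and 50 after an annotated start. The table held 34 promoters of 31 members, and Fbl, Npm1, Rrs1, Bop1 and Rrp12 were not matched. CACGTG, which reads the same on both strands, occurred in 8 of the 34 promoters (23.5%), against 7.15% of all 32851 promoters and 8.82% of 17113 promoters of genes in the deposited table. The 8 members were Rrn3, Mybbp1a, Utp20, Wdr43, Tsr1, Ltv1, Pes1 and Nop2. They held 9 sites, 6 of which began 2 to 40 bases after the start. The variant CACGCG, searched with its other strand CGCGTG, occurred in 11 promoters of 10 members (32.4%), against 9.27% of all promoters and 14.6% of promoters of genes in the deposited table. Together the E-box and its variant occurred in 16 of the 31 members with a promoter, of which Mybbp1a and Pes1 had both. Counted by promoter, either occurred in 15.4% of all promoters and in 21.7% of those of genes in the deposited table. CATGTG or CACATG occurred in 20.6% of member promoters, against 14.2% of all and 9.88% of those of genes in the deposited table, and TATAAA or TTTATA in 5.88%, against 13.6% and 9.15%. The promoters of 4 members are shown 5′ to 3′ on the gene's strand, with each CACGTG in capitals. Mybbp1a (chr11:72441077-72441376, plus strand) and Utp20 (chr10:88826765-88827064, minus strand) have an E-box past the start and lie among the members furthest above WT in Epi. Rrn3 (chr16:13780449-13780748, plus strand) has a pair of E-boxes before its start and one of the lowest fold changes of the members there. Ncl (chr1:86359406-86359705, minus strand) has no E-box and was called in opposite directions in the 2 comparisons.
Mybbp1a: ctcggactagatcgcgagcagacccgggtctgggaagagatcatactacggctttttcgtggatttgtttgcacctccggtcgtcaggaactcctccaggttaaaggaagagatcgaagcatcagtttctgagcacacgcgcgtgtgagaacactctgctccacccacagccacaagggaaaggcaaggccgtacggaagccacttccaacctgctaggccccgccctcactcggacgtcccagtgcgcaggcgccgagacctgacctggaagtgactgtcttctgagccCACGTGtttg
Utp20: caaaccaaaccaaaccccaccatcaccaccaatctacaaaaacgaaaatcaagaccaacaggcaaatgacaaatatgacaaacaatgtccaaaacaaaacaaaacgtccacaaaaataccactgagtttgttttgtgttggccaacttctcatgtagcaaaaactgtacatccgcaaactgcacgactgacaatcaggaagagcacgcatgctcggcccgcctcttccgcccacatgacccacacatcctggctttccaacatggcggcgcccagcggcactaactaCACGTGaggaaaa
Rrn3: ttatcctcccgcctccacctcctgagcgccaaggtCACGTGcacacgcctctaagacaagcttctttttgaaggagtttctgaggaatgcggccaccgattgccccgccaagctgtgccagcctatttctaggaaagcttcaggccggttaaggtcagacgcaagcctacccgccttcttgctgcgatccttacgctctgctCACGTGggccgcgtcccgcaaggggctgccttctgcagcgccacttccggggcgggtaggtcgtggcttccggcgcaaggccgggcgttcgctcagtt
Ncl: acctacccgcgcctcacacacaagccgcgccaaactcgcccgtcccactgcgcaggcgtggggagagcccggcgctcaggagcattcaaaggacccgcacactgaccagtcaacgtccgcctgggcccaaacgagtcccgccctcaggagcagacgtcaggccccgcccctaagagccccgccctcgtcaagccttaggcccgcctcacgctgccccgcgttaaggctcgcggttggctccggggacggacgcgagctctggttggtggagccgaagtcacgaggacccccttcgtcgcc
A match of letters is a description of these windows and says nothing of binding. Among members with a promoter in the table, the median log2 fold change in Epi, from the authors' deposited table, was 0.96 for the 8 with CACGTG and 1.33 for the 23 without. The range of the 8, from 0.24 to 1.86, holds that of the 23, from 0.58 to 1.83.

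**Figure D1:**
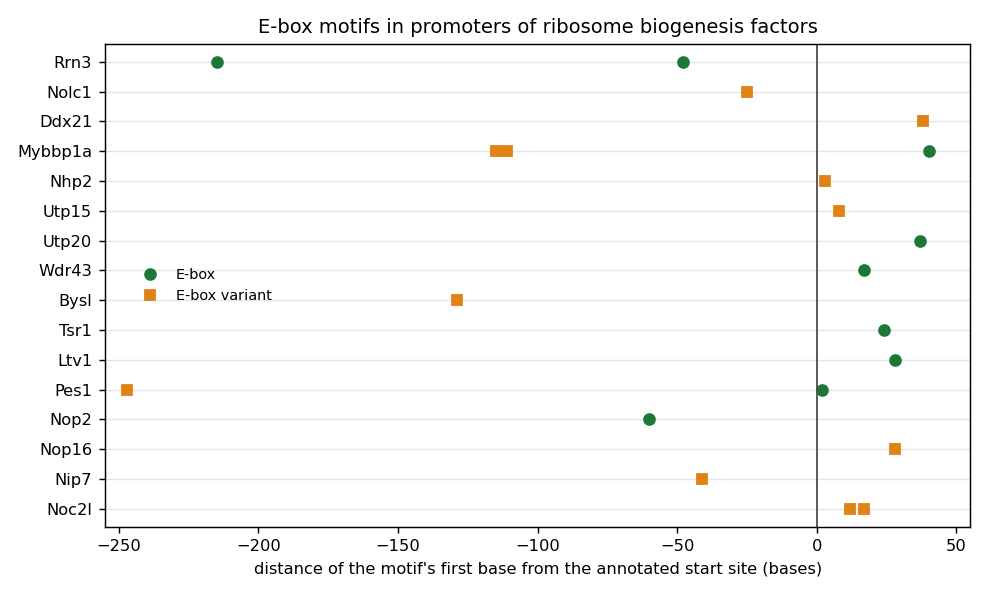
Positions of the E-box CACGTG (circles) and of its variant CACGCG on either strand (squares) in the promoters of the 16 members that hold either, as the distance in bases of the motif's first base from the annotated start. Of the 9 E-boxes, 6 lie within 40 bases after the start, and the pair in Rrn3 and the 1 in Nop2 lie before it. The 2 squares of Noc2l come from its listed start sites, and those of Mybbp1a overlap.

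In the Epi comparison nearly all of the factors were higher in F4KO. All 36 members lay above 0 in the authors' deposited table, 33 were called higher and none lower, where 30.6% of the 16336 genes with a fold change were called higher and 7.92% lower. The median of the members was 2.40-fold, a log2 fold change of 1.26 in the authors' deposited table, with quartiles of 1.16 and 1.52 and a range from 0.24 for Nop2 to 1.86 for Utp20. The whole Epi comparison was shifted upward: 71.7% of genes lay above 0, and their median log2 fold change in the authors' deposited table was 0.38, or 1.30-fold. Relative to that median, the members' median was 0.89 higher on the log2 scale, 35 of the 36 lay above it, and only Nop2 lay below it, at -0.14. When calls were counted beyond that median, 33 members were still higher, beside 25.8% of all genes higher and 12.7% lower. With a further limit of 1.5-fold beyond the median, a rule chosen after seeing the data, 29 members were higher and none lower, beside 11.6% and 6.89% of all genes. Among all genes, members stood between percentile 41.5 and 92.3, with 29 above percentile 75.

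In organoids the same genes lay close to 0. The authors' deposited table put 24 members above 0 and 12 below, with a median log2 fold change of 0.06 and a range from -0.31 for Nop58 to 0.45 for Polr1b. There, 3 members were called higher (Fbl, Nop2 and Polr1b) and 4 lower (Ncl, Npm1, Nop58 and Dkc1), where 3.09% of 15845 genes were called higher and 4.7% lower, and the median of all genes was 0. No member passed 1.5-fold in either direction, a fold that 0.278% of all genes passed upward and 0.953% downward at the same FDR. In RefSeq, build GRCm38.p6, the 3 higher genes lie at chr7:28168893-28179269 (Fbl), chr6:125131883-125144753 (Nop2) and chr2:129100970-129128060 (Polr1b). The 4 lower ones lie at chr1:86344719-86359455 (Ncl), chr11:33152498-33164142 (Npm1), chr1:59684961-59711510 (Nop58) and chrX:75095854-75109776 (Dkc1). The other 29 members were not called, which does not show that they were equal.

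**Figure D2:**
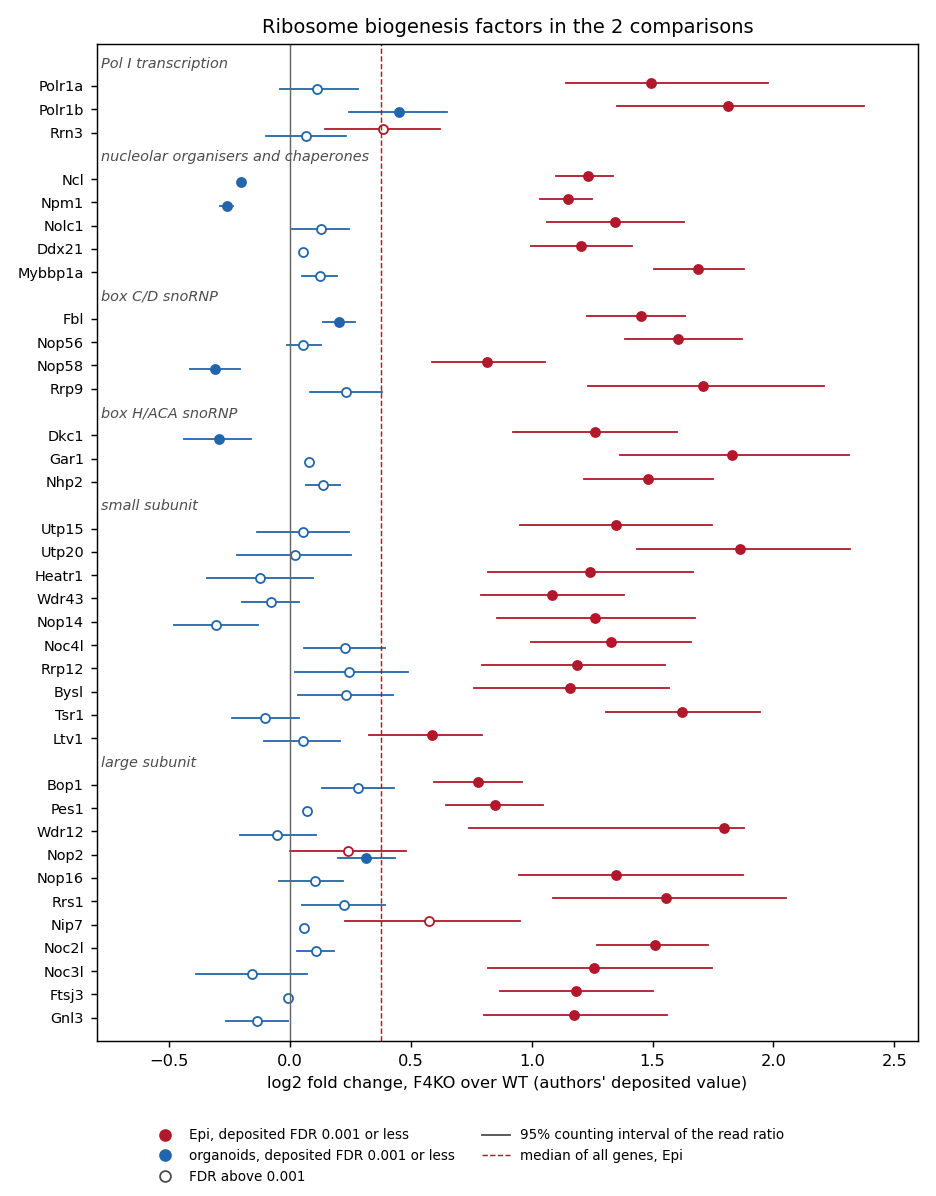
Log2 fold change of F4KO over WT for each of the 36 members, grouped by role, from the authors' deposited table. Red points are Epi and blue points organoids, filled where the deposited FDR is 0.001 or less; lines are exact 95% counting intervals of the recovered read ratio, and the dashed line is the median of all genes in Epi, 0.38. All red points lie above 0, and blue points lie between -0.31 and 0.45.

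**Figure D3:**
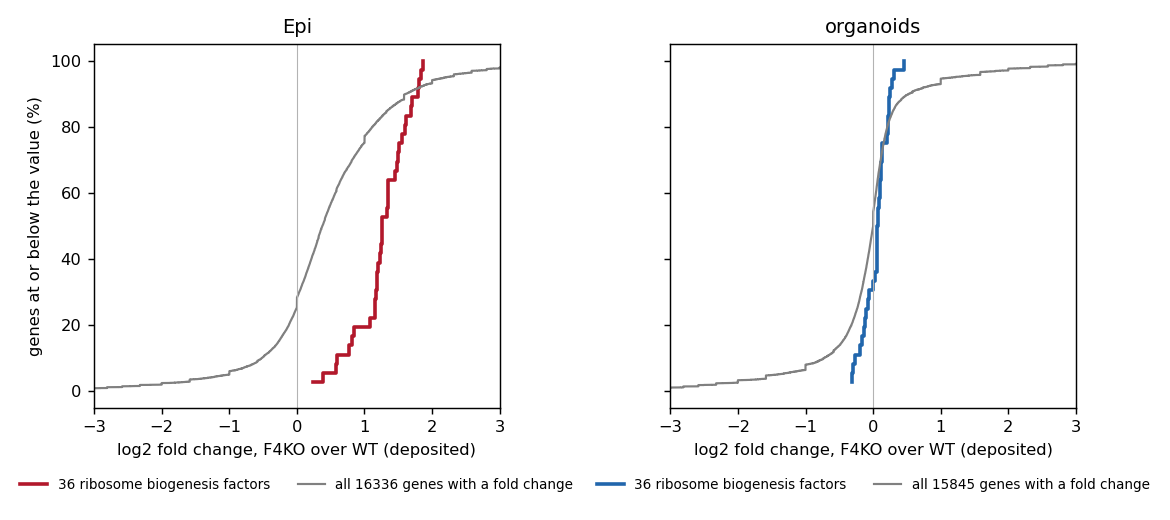
Cumulative distribution of the log2 fold change of F4KO over WT in the authors' deposited table for the 36 members (coloured line) and for all genes with a fold change (grey line), Epi on the left and organoids on the right. The horizontal axis is limited to 3 in either direction. The members' curve stands to the right of the grey one over most of its course in Epi, with medians of 1.26 and 0.38, and crosses near it in organoids, with medians of 0.06 and 0.

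RNA polymerase I is represented by Polr1a and Polr1b, its largest subunits, which form the catalytic centre, and by Rrn3, the initiation factor that brings the polymerase to the ribosomal RNA promoter. Polr1a had 167 reads in F4KO Epi and 70 in WT Epi, and Polr1b had 132 in F4KO and 45 in WT. Both subunits were called higher there, Polr1b with a read ratio of 3.61 (95% interval 2.56 to 5.18). Rrn3 had 300 reads in F4KO Epi and 283 in WT Epi, a ratio of 1.30 (1.10 to 1.54), close to the median fold of all genes, 1.30. The authors' deposited table gives Rrn3 an FDR of 0.00319, so it was not called. In organoids Polr1b had 480 reads in F4KO and 355 in WT and was called higher, with 0.45 on the log2 scale (FDR 0.000142) in the authors' deposited table. At 1.37-fold in the authors' deposited table it had the largest fold change of the members called in organoids. Polr1a had 652 reads in F4KO organoids and 605 in WT organoids, and Rrn3 had 624 in F4KO and 601 in WT, and neither was called. The interval of Rrn3 in Epi did not overlap that of Polr1a (2.21 to 3.94) or Polr1b. It did overlap those of other polymerase I subunits, with ratios of 1.35 (1.13 to 1.63) for Znrd1, 1.45 (1.33 to 1.59) for Polr1d and 1.50 (1.16 to 1.94) for Twistnb. Polr1c, at 1.87 (1.51 to 2.30), and Polr1e, at 2.35 (1.39 to 4.08), had higher ratios, and their intervals overlapped it as well. The interval of Cd3eap, at 3.10 (2.02 to 4.86), did not. These other subunits were named after their values were seen.

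Nucleolar organisers and chaperones were all called higher in Epi, 5 of 5, beside 30.6% of all genes. Ncl (nucleolin), an abundant nucleolar protein that binds the ribosomal RNA precursor, had 1722 reads in F4KO Epi and 910 in WT Epi, a ratio of 2.33 (2.15 to 2.53). Npm1 (nucleophosmin), a nucleolar chaperone of histones and ribosomal proteins, had 1934 reads in F4KO against 1078 in WT, a ratio of 2.21 (2.05 to 2.38). Mybbp1a, a nucleolar protein first known as a partner of MYB, had 863 in F4KO and 329 in WT, a ratio of 3.23 (2.84 to 3.68). Nolc1, a chaperone of small nucleolar ribonucleoproteins, and Ddx21, an RNA helicase, had ratios of 2.54 and 2.30, so the group lay between 2.21-fold and 3.23-fold. In organoids Ncl and Npm1 were called lower, beside 4.7% of all genes. Npm1 had 19548 reads in F4KO organoids and 23659 in WT organoids, a ratio of 0.833 (0.817 to 0.849), and its log2 fold change in the authors' deposited table was -0.26. For Ncl the authors' deposited table gives -0.20 with an FDR of 4.29e-18, and no read pair could be recovered. The other 3 of this group were above 0 in organoids and not called, with Mybbp1a close to the limit at 0.12 on the log2 scale (FDR 0.00696) in the authors' deposited table. Processed copies of Npm1 elsewhere in the genome are nearly identical to it, so its reads may be shared with them and its values are uncertain.

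The core proteins of the box C/D particles were called higher in Epi, 4 of 4, beside 30.6% of all genes. Fbl (fibrillarin), the methyltransferase, had 640 reads in F4KO Epi and 292 in WT Epi, a ratio of 2.70 (2.34 to 3.11). Nop56, a scaffold of the particle, had 499 in F4KO and 199 in WT, a ratio of 3.08 (2.61 to 3.65). Its partner Nop58 had 366 in F4KO and 255 in WT, a ratio of 1.77 (1.50 to 2.08). The intervals of Nop56 and Nop58, which sit side by side in the same particle, did not overlap in Epi. Rrp9, a protein of the U3 particle that is needed for the first cuts of the precursor, had 133 reads in F4KO and 50 in WT there, a ratio of 3.27 (2.35 to 4.63). In organoids this group split. Fbl had 3974 reads in F4KO organoids and 3485 in WT organoids and was called higher, with 0.20 on the log2 scale (FDR 5.88e-08) in the authors' deposited table. Nop58 had 1383 in F4KO and 1728 in WT and was called lower, with -0.31 (FDR 7.42e-08) in the authors' deposited table. Nop56, with 3206 reads in F4KO and 3105 in WT, and Rrp9, with 808 in F4KO and 694 in WT, were not called. Within one particle, Fbl and Nop58 were thus called in opposite directions in organoids, each with a fold change under 0.322 in size on the log2 scale.

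All 3 box H/ACA proteins were called higher in Epi, beside 30.6% of all genes. Dkc1 (dyskerin), the pseudouridine synthase, had 218 reads in F4KO Epi and 112 in WT Epi, a ratio of 2.39 (1.90 to 3.04). Gar1 had 150 in F4KO and 52 in WT, a ratio of 3.55 (2.57 to 4.96), and Nhp2 had 388 in F4KO and 171 in WT, a ratio of 2.79 (2.33 to 3.36). The 3 intervals overlap, and differences among the 3 genes were not tested. In organoids Dkc1, which lies on chromosome X, had 768 reads in F4KO and 954 in WT and was called lower, with -0.29 on the log2 scale (FDR 0.000241) in the authors' deposited table. Its partners were above 0: Nhp2 had 3478 reads in F4KO organoids and 3188 in WT organoids and, at an FDR of 0.00129 as the authors' deposited table gives it, was just outside the limit, and Gar1 had a log2 fold change of 0.08 there. Dkc1 was thus the 1 box H/ACA protein called in organoids.

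Small subunit factors were called higher in Epi in 10 of 10 cases, beside 30.6% of all genes. Their median was 2.38-fold in the authors' deposited table. Utp15, Heatr1 and Wdr43 belong to the complex that joins the precursor while it is transcribed, and their ratios in Epi were 2.54, 2.36 and 2.12. Utp20, another early factor, had the highest fold change of all members, with 175 reads in F4KO Epi and 59 in WT Epi, a ratio of 3.65 (2.70 to 4.99). Nop14 and Noc4l, which bind each other in yeast, had ratios of 2.40 and 2.50, and Rrp12, a factor of pre-ribosome export in yeast, had 2.25. The late factors differed among themselves. Tsr1, related to translational GTPases, had 293 reads in F4KO Epi and 117 in WT Epi, a ratio of 3.08 (2.48 to 3.85), and Bysl had 149 in F4KO and 82 in WT, a ratio of 2.24 (1.70 to 2.96). Ltv1, which leaves the particle late in its maturation, had 339 in F4KO and 283 in WT, a ratio of 1.47 (1.255 to 1.73), and was the lowest of the group. In organoids none of the 10 was called, near the background of 3.09% of all genes higher and 4.7% lower. There, 6 were above 0 and 4 below, between -0.31 for Nop14 and 0.24 for Rrp12 in the authors' deposited table. Nop14, with 491 reads in F4KO organoids and 612 in WT organoids, came nearest to a call, at an FDR of 0.00441 per the authors' deposited table.

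Large subunit factors were called higher in Epi in 9 of 11 cases, beside 30.6% of all genes. They spanned most of the range of the members there, from 0.24 to 1.80 on the log2 scale as the authors' deposited table gives it. Bop1, Pes1 and Wdr12 form one complex, which is needed for the maturation of the large subunit's RNAs. Bop1 had 595 reads in F4KO Epi and 427 in WT Epi, a ratio of 1.71 (1.51 to 1.95), and Pes1 had 514 in F4KO and 352 in WT, a ratio of 1.80 (1.57 to 2.06). Wdr12 had 82 reads in F4KO against 41 in WT, a ratio of 2.46 (1.67 to 3.67), but 3.47-fold in the authors' deposited table, so its size is less certain than that of the others. The ratios of Bop1 and Pes1 differed by less than their counting error, and both intervals lay below the median ratio of the members, 2.41. Noc2l had 514 reads in F4KO Epi and 224 in WT Epi, a ratio of 2.82 (2.41 to 3.32), and its relative Noc3l had 120 in F4KO and 61 in WT, a ratio of 2.42 (1.76 to 3.35). Rrs1, which in yeast brings the 5S particle into the large subunit, had 127 in F4KO and 53 in WT, a ratio of 2.95 (2.12 to 4.14), and Nop16 had 127 in F4KO and 59 in WT, a ratio of 2.65 (1.93 to 3.67). Ftsj3, a ribosomal RNA methyltransferase, and Gnl3 (nucleostemin), a nucleolar GTPase of stem and dividing cells, had ratios of 2.27 and 2.26. These 6 lay between 2.26-fold and 2.95-fold.

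Nop2 and Nip7 were the large subunit factors not called in Epi. Nip7, a small protein of the large subunit precursor, had 143 reads in F4KO Epi and 117 in WT Epi, a ratio of 1.50 (1.17 to 1.94), and 0.00248 as its FDR in the authors' deposited table. Nop2, which methylates a cytosine of the large subunit's RNA, had 288 in F4KO and 300 in WT, a ratio of 1.18 (1.001 to 1.39), and 0.0773 as its FDR in the authors' deposited table. Nop2 was the one member with a higher fold change in organoids than in Epi. It had 1328 reads in F4KO organoids and 1076 in WT organoids and was called higher there, with 0.32 on the log2 scale (FDR 2.32e-06) in the authors' deposited table. In the authors' deposited table of transcripts, the Nop2 transcript with values in both comparisons lay at 0.24 in Epi. In organoids that transcript lay at 0.16 (FDR 0.0251) and was not called. Another transcript of Nop2, with no fold change in Epi, was called higher in organoids at 8.36 (FDR 4.31e-41) in that table. Bop1 had 817 reads in F4KO and 677 in WT in organoids and 0.00185 as its FDR in the authors' deposited table, outside the limit. The other 9 large subunit factors had fold changes from -0.16 for Noc3l to 0.22 for Rrs1 there.

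**Figure D4:**
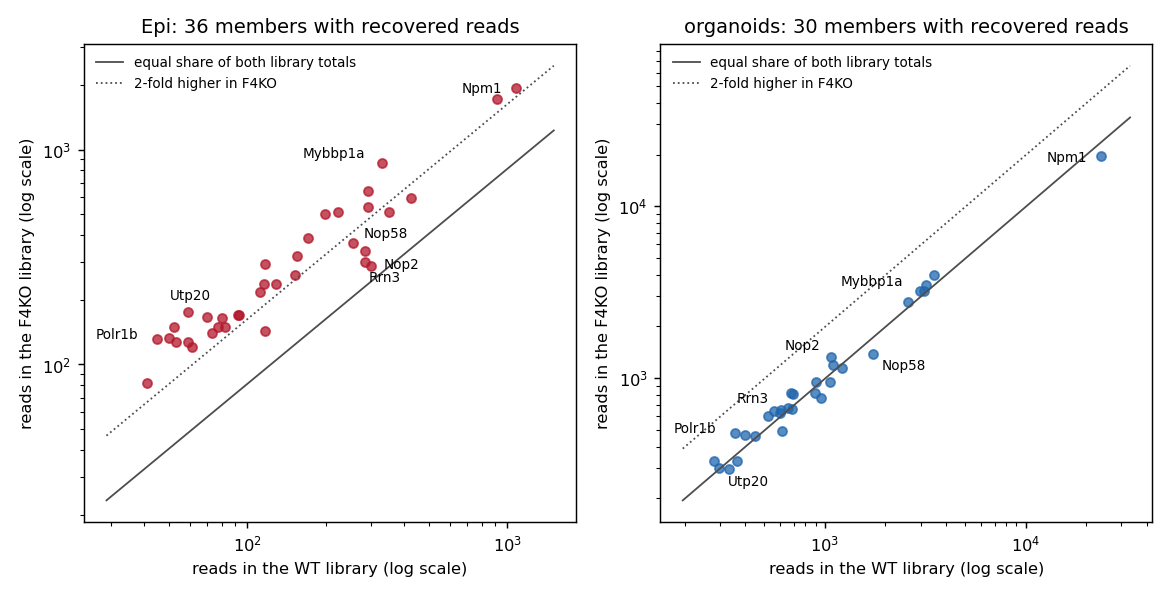
Recovered reads of each member in the F4KO library (vertical) against the WT library (horizontal), both on log scales, for the 36 members recovered in Epi and the 30 recovered in organoids. The solid line marks equal shares of the library totals and the dotted line a 2-fold higher share in F4KO. In Epi all points lie above the solid line, and in organoids they scatter closely around it.

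Other limits moved the counts in Epi little. All 36 members have at least 20 reads, and among the genes of that depth 40.3% were called higher and 10.5% lower in Epi. At an FDR of 0.05, 35 members were higher and none lower there, beside 43.2% and 10.4% of all genes, and at 1e-06 it was 31 and none, beside 19.8% and 6.04%. A minimum fold of 0.322 on the log2 scale left 33 higher and none lower, beside 27.2% and 5.29%, and one of 1.5-fold also left 33, beside 20% and 2.51%. Counted beyond the median of genes with 20 reads, the 33 stood beside 26.5% and 12%. In organoids the counts moved with the limit. Among genes with 20 reads or more, 4.01% were called higher and 6.12% lower, beside the same 3 and 4 members. At an FDR of 0.05, 9 members were higher and 5 lower, beside 7.52% and 10.2% of all genes, and at 1e-06 it was 1 (Fbl) and 3, beside 1.52% and 2.27%. A minimum of 0.322 on the log2 scale left Polr1b higher, since Nop2 lay just below it at 0.316, and none lower, beside 0.959% and 2.69%.

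Side by side, 35 of the 36 members had a higher log2 fold change in Epi than in organoids, by a median of 1.32, and 34 did so once each comparison was set relative to its own median of all genes, by a median of 0.95. The exception on the deposited scale was Nop2, at -0.08, and Rrn3 joined it after centring, at -0.06. These differences have no replicate check. Fbl and Polr1b were called higher in both comparisons, and Ncl, Npm1, Nop58 and Dkc1 were called higher in Epi and lower in organoids. Across the 36 members the fold changes of the 2 comparisons had a Pearson r of 0.07 and a Spearman rho of 0.15, given as a description of genes that share their libraries. Precision differs between the comparisons. In Epi members had 82 to 1934 reads in F4KO (median 237) and 41 to 1078 in WT (median 117), while the 30 recovered in organoids had 298 to 19548 in F4KO (median 788) and 280 to 23659 in WT (median 691). With the deeper reads, the counting intervals of 12 of those 30 members still held 1, while 13 lay above 1 and 5 below. In Epi all 36 intervals lay above 1, and 32 lay above the median fold of all genes.

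Other genes of the pathway moved with the members in Epi. Of 129 further genes in 5 lists (polymerase I machinery, assembly of small nucleolar particles, small subunit, large subunit and RNA exosome), 126 lay above 0 in the authors' deposited table, 97 were called higher and 2 lower, beside 30.6% and 7.92% of all genes, with a median log2 fold change of 0.87. Of these, 111 lay above the median of all genes. Small subunit factors were called higher in 35 of 43 cases, among them Nat10, an RNA cytidine acetyltransferase, at a log2 fold change of 1.73 in the authors' deposited table. Large subunit factors were called higher in 39 of 48 cases, with Mdn1, a very large ATPase that remodels the precursor, highest at 1.83 in the authors' deposited table. Called genes numbered 7 of 11 in the assembly of small nucleolar particles, where the ATPases Ruvbl1 and Ruvbl2 led with 1.53 and 1.37 in the authors' deposited table, and 11 of 14 in the RNA exosome, which trims and degrades the precursor's spacers. In the polymerase I list 5 of 13 were called, a share close to the 40.3% of all genes with 20 reads or more, and the median was 0.53, with 10 of 13 above the median of all genes in the authors' deposited table. Its highest called genes were Cd3eap, a polymerase subunit, at 1.60, and Tcof1 (treacle), which brings factors to the ribosomal RNA genes, at 1.27 in the authors' deposited table. The 2 called lower were Sbds at -0.37 and Eif6 at -0.24 in the authors' deposited table. Both act at the last step, in which SBDS helps to release EIF6 from the large subunit.

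In organoids the median of the same 129 genes lay at -0.01 (log2) in the authors' deposited table, with 63 above 0, 3 called higher and 10 lower. These counts stand near the background, which was 3.09% higher and 4.7% lower among all genes and 4.01% and 6.12% among those with 20 reads or more. The 3 higher were Tcof1 at 0.37, Nol9 at 0.37 and Mrto4 at 0.30 in the authors' deposited table, and all 3 were also called higher in Epi. The lowest were the small subunit factors Mphosph10 at -0.56 and Ddx10 at -0.52 and the polymerase I cofactor Taf1d at -0.45 in the authors' deposited table. In Epi, Taf1d was called higher, at 1.18 in the authors' deposited table.

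Genes for the ribosomal proteins themselves followed the members in Epi. Of 84 with a fold change, 82 were called higher, beside 30.6% of all genes, with a median log2 fold change of 1.18 in the authors' deposited table. Beyond the median of all genes 80 of them stayed higher, beside 25.8% of all genes. The 2 that then lay below it were Fau, at 0.31, and Rps27l, at 0.20 in the authors' deposited table. In organoids 17 of 85 were called higher and 27 lower, beside 3.09% and 4.7% of all genes. Among genes with 20 reads or more the shares were 4.01% and 6.12%. The median of the 85 in organoids was -0.02 in the authors' deposited table, and no called gene of theirs passed 0.322 in size on that scale. A call depends on read depth as well as on the size of a difference, and depth was not matched here. Reads of ribosomal protein genes can be shared with their many processed copies, so these values are uncertain for single genes. The MYC network gave a divided picture in Epi. Of its 11 genes 3 were called higher, near the background, and 3 lower, beside 30.6% and 7.92% of all genes. Their median log2 fold change was 0.21 in the authors' deposited table, below the 0.38 of all genes. Myc had 228 reads in F4KO Epi and 102 in WT Epi and was called higher, with a log2 fold change of 1.46 in the authors' deposited table, as were its relative Mycl at 1.07 and Mnt, a MYC antagonist, at 0.59. Max, the partner of MYC, at -0.75, and the antagonists Mxi1 at -0.88 and Mxd1 at -0.69 were called lower in the authors' deposited table. In organoids none of the 11 genes of that list was called, beside 3.09% of all genes higher and 4.7% lower.

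**Figure D5:**
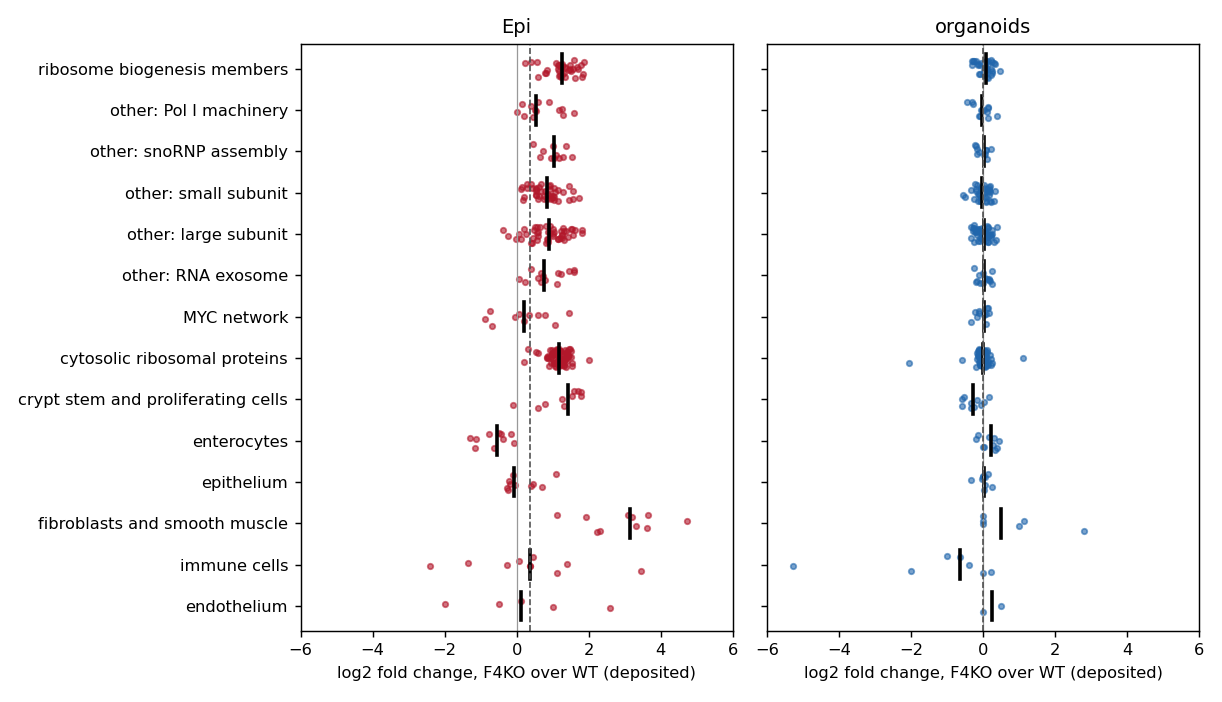
Log2 fold change of F4KO over WT in the authors' deposited table for the members, the further pathway genes, ribosomal protein genes and cell type markers, with Epi on the left and organoids on the right. Each point is a gene, black bars are medians, and dashed lines mark the median of all genes. In Epi the members, the 5 further pathway lists, ribosomal protein genes and crypt markers lie mostly to the right of that line, while all 10 enterocyte markers lie to the left of 0.

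Markers of other cells moved with these genes in Epi. Of 10 crypt stem and proliferating cell markers, 7 were called higher, beside 30.6% of all genes, with a median log2 fold change of 1.43 in the authors' deposited table. The 9 with recovered reads summed to 6093 in F4KO Epi and 2867 in WT Epi. Mki67, a mark of dividing cells, had 1242 reads in F4KO and 469 in WT, and Top2a had 929 in F4KO and 334 in WT. All 10 enterocyte markers were called lower, beside 7.92% of all genes. Their median was -0.56 and the lowest value, for Apoa4, was -1.30 in the authors' deposited table. In organoids 6 of the 10 crypt markers were called lower and 1 higher, with a median of -0.30 in the authors' deposited table. There, 4 enterocyte markers were called higher and 2 lower, with a median of 0.21 in the authors' deposited table. Among all genes 3.09% were called higher and 4.7% lower in organoids. The members' median was 1.26 in Epi in the authors' deposited table, above 0 as that of the crypt markers was. In organoids the members' median was 0.06, close to 0, with 3 members called higher, 4 lower and 29 not called. The part of dividing cells in the members' fold changes was not tested.

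Fibroblast and smooth muscle markers were also higher in F4KO Epi, with 6 of 10 called, beside 30.6% of all genes. Their summed reads were 271 in F4KO against 35 in WT, where Lum and Pdgfra had 0 against 3 and 4 in F4KO. In organoids only 2 of these genes had recovered reads, 3 in F4KO and 0 in WT. Immune markers summed to 1271 reads in F4KO Epi and 1238 in WT Epi over 10 genes, a ratio of 1.26 once corrected for the totals. Itgam alone was called higher and none lower, beside 30.6% and 7.92% of all genes. Adgre1 had 5 reads in F4KO Epi and 0 in WT Epi. In organoids the 6 with recovered reads summed to 153 in F4KO and 235 in WT. Cd3e, Lyz2 and Adgre1 had 0 in F4KO organoids, but only 1, 6 and 1 in WT organoids. Of 5 genes of endothelium, 3 gave reads in Epi and summed to 16 in F4KO and 21 in WT, a corrected ratio of 0.937. Cldn5 had 0 in F4KO Epi and 1 in WT Epi, and Kdr had 4 in F4KO and 0 in WT. Epithelial markers were read in both comparisons, with Krt18 at 3072 reads in F4KO Epi and 2777 in WT Epi and at 13103 in F4KO organoids and 16637 in WT organoids. In Epi 4 of the 10 epithelial markers were called higher and 6 lower, beside 30.6% and 7.92% of all genes. Among genes with 20 reads or more the shares were 40.3% and 10.5%, so the count called higher stood near the background. The 6 lower epithelial markers were small in size, with log2 fold changes from -0.28 to -0.04 in the authors' deposited table. The 4 higher ones lay between 0.39 and 1.08 there. Read depth was not matched, so the count called lower does not show less epithelial RNA in F4KO Epi. In organoids 8 of the 10 lay above 0, with 2 called higher (Cdx1 and Vil1) and 1, Krt18, lower, beside 3.09% and 4.7% of all genes. Fabp4 itself had 4 reads in F4KO Epi and 1 in WT Epi, and 0 in F4KO organoids and 1 in WT organoids, too few to check the genotype labels or the direction of the fold changes. All 4 Y-linked genes examined were called higher in F4KO organoids, beside 3.09% of all genes, with log2 fold changes from 2.96 to 9.53 in the authors' deposited table. In Epi 2 of the 4 were called higher, beside 30.6% of all genes, with Ddx3y at 0.57 and Uty at 0.53 in the authors' deposited table. Reads of the 4 in Epi summed to 2029 in F4KO and 2077 in WT, a ratio of 1.202 once corrected for the totals, below the median fold of all genes. In organoids the sex of the animals and the genotype therefore cannot be told apart, and the part of these markers in the members' values was not tested.

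The authors' deposited table of transcripts lists 63 transcripts of the 36 members, with several for 18 of them. In Epi 57 had a fold change, of which 44 were called higher and 3 lower, where 28.3% of all transcripts were called higher and 15.5% lower. The 3 lower were single transcripts of Dkc1, Nolc1 and Wdr12, each of which also had at least 1 transcript called higher. Nolc1 had 3 transcripts called higher at log2 fold changes from 6.27 to 7.86 and 1 called lower at -1.11 in the authors' deposited table of transcripts. Wdr12 had 3 called higher at 2.18 to 5.04 and 1 lower at -4.39 in the authors' deposited table of transcripts. At the level of the gene, the log2 fold change in Epi was 1.35 for Nolc1 and 1.80 for Wdr12 in the authors' deposited table, and no level of a single transcript is listed. In organoids 62 had a fold change, of which 8 were called higher and 10 lower, where 15.4% of all transcripts were called higher and 16.5% lower, and Nolc1 and Wdr12 again had transcripts called both ways. Both listed transcripts of Npm1 and both of Ncl were called higher in Epi and lower in organoids. For the other members with opposite calls the transcripts were divided. Both transcripts of Nop58 were called higher in Epi, but in organoids 1 was called lower and the other, at -0.42 (FDR 0.0173) in the authors' deposited table of transcripts, was not. Of the 4 Dkc1 transcripts in organoids, 2 were called lower, and the others lay at 0.12 and 1.26 and were not called in the authors' deposited table of transcripts.

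Exons of 18 members overlap an exon of another gene in the GENCODE annotation, 13 of them a protein-coding gene on the opposite strand. The longest overlaps were 616 bases between Tsr1 and Srr, 598 between Noc2l and Samd11 and 361 between Bysl and Ccnd3. Whether the authors counted by strand is not stated, so reads of such a pair cannot be told apart and these members are uncertain to that extent. Of the 18 members without any overlap, 15 were called higher and none lower in Epi, beside 30.6% and 7.92% of all genes, with a median log2 fold change of 1.29 in the authors' deposited table. In organoids 3 of these 18 were called higher and 1 lower, beside 3.09% and 4.7% of all genes, with a median of 0.07 in the authors' deposited table.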

How the data were processed

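Libraries of intestinal organoids, 1 for each genotype, were made from 1.5 µg of total RNA with a SMARTER mRNA-seq kit, per the labels' protocols. Per the submitters' processing notes the genome was GRCm38 (mm10), and no aligner, quantifier or annotation is named. For each gene and transcript the authors deposited a log2 fold change, a p-value of a Poisson-based test per the file headers, and an FDR, another value that the authors derived from the p-value and that runs above 1 in organoids. No level or count of a library is in the columns used, so the test planned for levels was not run. Calls are a deposited FDR of 0.001 or less.

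Members, roles and lists were chosen with earlier results of these data known. The members are all named. Of the other lists, the text names at most the 3 highest and 3 lowest called genes of a list and comparison, and Myc, apart from the genes given next. Fau, Rps27l, Krt18, the polymerase I subunits set beside Rrn3, the markers at 0 reads and the genes with overlapping exons were named after their values were seen.

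Whole read numbers were recovered as the pair of reads whose two-sided Audic-Claverie p-value equals the deposited p-value to 6 significant digits and whose ratio lies within a log2 window of 0.01, 0.03, 0.1 or, for totals of up to 200 reads, 0.6 of the deposited fold change. A pair was kept where it alone fitted and 20 shifts of the p-value gave at most 0.1 pairs on average. Pairs with 0 reads in 1 library were kept by another rule. For these, a single pair had to match the p-value and the direction of the fold change, with no window and no shifts. Of 321 genes searched, 276 were recovered in Epi and 168 in organoids, and among the 36 members 1 still matched in each comparison after the p-value had been shifted. The search was tested on simulated data with known reads, 200 genes for each comparison. For Epi 198 were recovered, all of them rightly, and for organoids 129 were recovered, 128 of them rightly. The simulated fold changes lay closer to their read ratios than those of some members, such as Wdr12 in Epi, so the test does not cover such members. Wdr12 in Epi came from the widest window. Intervals are exact Clopper-Pearson intervals of the share of reads, turned into ratios.

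Python 3.11.15, numpy 2.4.6, scipy 1.17.1, pandas 2.3.3 and matplotlib 3.10.9 were used. Alternatives were other FDR limits, minimum folds, centring on the median of all genes or of genes with at least 20 reads, the table of transcripts and a filter at 20 reads.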

Additional observations from a re-analysis of the deposited data

Results flagged for a closer look

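For 4 members the authors' deposited table called F4KO higher than WT in Epi and lower than WT in organoids, so that the fold change had one sign in one comparison and the opposite sign in the other. The log2 fold change in Epi minus that in organoids was 1.43 for Ncl, 1.41 for Npm1, 1.12 for Nop58 and 1.56 for Dkc1. With no replicates in either comparison the difference was not tested. At the level of transcripts, all those of Ncl and Npm1 were called higher in Epi and lower in organoids, while some of Nop58 and Dkc1 were not called in organoids.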

How the results depend on the processing

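Of 45 alternative values computed, 30 stayed within 1.5 times the reported count. In Epi the count of members called higher stayed between 29 and 44 under every alternative run, the last being a count of transcripts, and the count lower stayed at 0 except in the table of transcripts, where 3 were lower. In organoids the 3 members called higher became 9 at an FDR limit of 0.05, 1 at 1e-06, 1 with a minimum of 0.322 on the log2 scale, 0 with 1.5-fold, also when counted from the median of all genes (an alternative chosen after seeing the data), and 8 among transcripts. The 4 called lower there became 0 with either minimum, also when 1.5-fold was counted from the median, and 10 among transcripts. Among the 129 further pathway genes, the 2 called lower in Epi became 1 with the minimum of 0.322. In organoids their 3 higher became 17 at an FDR limit of 0.05, and their 10 lower became 17 at that limit and 6 with that minimum. The lower counts follow from fewer calls under a stricter rule, and for transcripts the cause was not tested. No paired analysis was possible because each genotype had 1 library and the labels give no replicate numbers; for the same reason no library could be left out in turn. Member reads are fewer in Epi than in organoids, and what differs by less than the counting interval was not detectable at this depth.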
